A study of Mus musculus with 21 samples.

Results

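The collagen genes are the genes that encode the alpha chains of collagens. They were taken as every row of both count tables whose symbol is Col, a number, a and a number, which gave 44 of the 40838 genes counted. Of the 44 genes, 11 encode chains of the fibrillar collagens, 6 encode the chains of type IV collagen of basement membranes, and 27 encode chains of the other types. The 21 RNA-seq libraries, in 8 groups, came from embryonic stem cells (ESCs) of the mouse, pluripotent cells grown in culture. In SL2i medium there were 2 libraries each of SLC16A1 clone 1, SLC16A1 clone 2 and a line called chr8A. In SL medium there were 3 libraries each of the same 2 clones and chr8A, and, in a separate table, 3 libraries of cells with LbNOX and 3 of cells with a vector. All groups had grown for 48 h with 0.2 mM pyruvate and with 10% serum that had been dialyzed. The labels give short names only: following usage in this field, SL is taken to mean serum and leukemia inhibitory factor, SL2i to mean SL plus inhibitors of GSK3B and MEK, and chr8A to be the control line. Slc16a1 encodes the monocarboxylate transporter MCT1, and LbNOX is a bacterial enzyme that oxidizes NADH. Each clone is 1 line, and the change made to Slc16a1 in it was not stated in these sources.

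Collagens are secreted proteins in which alpha chains wind around one another into a triple helix. Fibrillar collagens pack into the banded fibres of connective tissue, type IV collagen forms the network of basement membranes, and the smaller types coat fibrils, anchor membranes to tissue or span the cell membrane. In the early mouse embryo type IV collagen is laid down with laminin in the first basement membranes, and fibrillar collagens come later, with mesenchyme.

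Total counts per library were 9784408 to 10908368 in SL2i, 15802072 to 30145771 in the SL libraries of the clones and chr8A, and 16521594 to 30008895 in the LbNOX and vector libraries. All 12 markers of ESCs, among them Pou5f1, Sox2 and Nanog, reached 1 CPM (counts scaled to library size) in every group, so the cells carried the markers of their label. Slc16a1 stood at 122 and 123 CPM in SL2i clone 1 and at 78.7 and 78.5 CPM in SL2i clone 2, against 157 and 167 CPM in SL2i chr8A. In SL it stood at 162 to 182 CPM in clone 1 and 91.4 to 96.5 CPM in clone 2, against 195 to 201 CPM in chr8A. CPM used TMM factors within each table, and the tables were scaled separately. Levels of different genes are compared per kilobase, as RPKM, with the gene lengths deposited in the tables. In the LbNOX table vector replicate 2 and LbNOX replicate 3 deviated together from their group means (r = 0.685 across genes), and the differences tested there are given with and without these 2 libraries. A lower level in a whole culture can come from fewer cells that transcribe a gene or from less RNA in each cell, and these cannot be told apart here. The labels do not say that replicates came from separate cultures, so a p-value reflects only how these libraries spread, and that spread may be technical.

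Col18a1 held most of the collagen transcript in every group. It encodes type XVIII collagen, a proteoglycan of basement membranes whose end fragment is endostatin. Per kilobase it reached 48.5 RPKM in SL2i clone 1, 44.7 RPKM in SL2i clone 2 and 39.6 RPKM in SL2i chr8A. In SL its level was 107 RPKM in clone 1, 102 RPKM in clone 2, 108 RPKM in chr8A, 93.3 RPKM in LbNOX cells and 95.3 RPKM in vector cells. In SL chr8A the next genes were Col4a1 at 15.7 RPKM, Col4a2 at 14.1 RPKM, Col9a2 at 6.27 RPKM and Col5a1 at 5.17 RPKM. In SL2i chr8A they were Col9a2 at 3.79 RPKM, Col5a1 at 2.46 RPKM, Col4a1 at 1.26 RPKM and Col2a1 at 1.23 RPKM. In both SL2i clones Col4a1 came second, at 2.24 RPKM in clone 1 and 2.01 RPKM in clone 2.

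Most collagen genes were low. Of the 44 genes, 18 in SL2i clone 1, 20 in SL2i clone 2 and 18 in SL2i chr8A had a mean of at least 1 CPM, against 29, 29 and 31 in the same lines in SL. No read was found in SL2i for 3 genes in clone 1, 7 in clone 2 and 2 in chr8A, and each of the 44 had a read in every SL group. The SL2i libraries were shallower, and 1 read was worth 0.096 to 0.106 CPM there and 0.0326 to 0.062 CPM in the SL libraries of the same lines. Summed over the 44 genes, collagen reads came to 431 and 447 CPM in SL2i clone 1, 414 and 402 CPM in SL2i clone 2 and 385 and 385 CPM in SL2i chr8A. In SL the sums were 1225, 1201 and 1208 CPM in clone 1, 1116, 1122 and 1063 CPM in clone 2 and 1233, 1214 and 1197 CPM in chr8A. Every SL2i library thus held less than every SL library of its line. The share of Col18a1 in the collagen reads was 74.3 and 74.6% in the SL2i chr8A libraries, against 64.1 to 64.5% in the SL chr8A libraries. The share of the 6 type IV genes was 4.2 and 4.32% in SL2i chr8A, against 18.8 to 19.0% in SL chr8A.

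**Figure D1:**
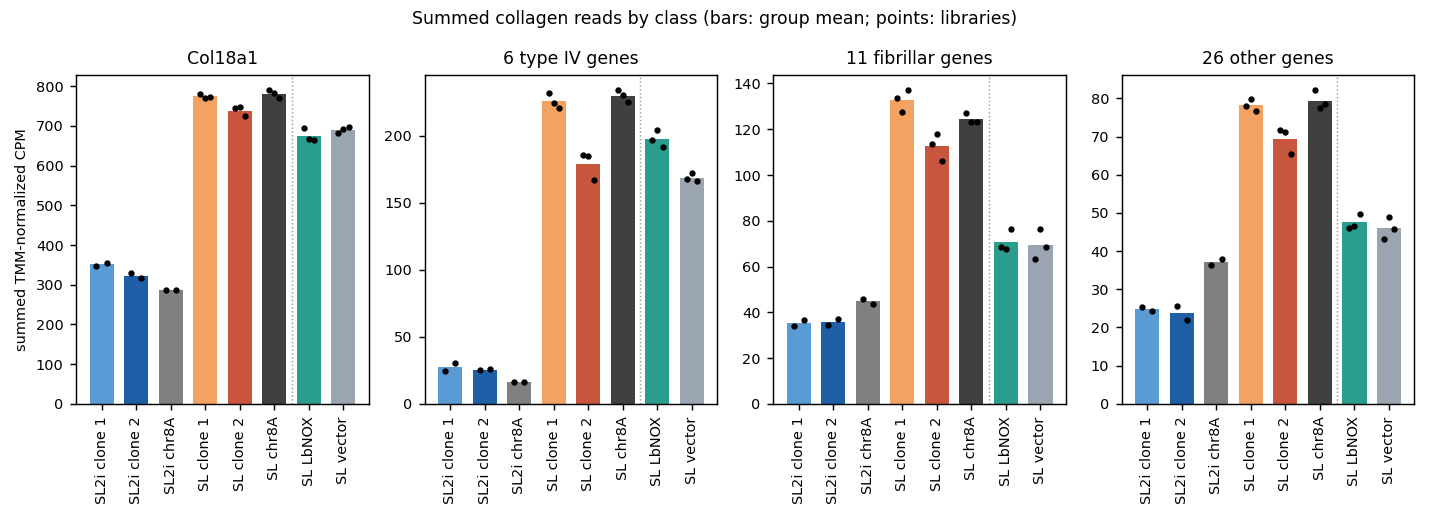
Summed TMM-normalized CPM (y axis, starting at 0 in each panel) of Col18a1, the 6 type IV genes, the 11 fibrillar genes and the 26 other genes in the 8 groups (x axis); bars are group means and points are libraries, and the dotted line parts the separately normalized tables. The type IV sum was 16.2 and 16.6 CPM in SL2i chr8A against 225 to 234 CPM in SL chr8A, the largest ratio of the 4 panels.

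**Figure D2:**
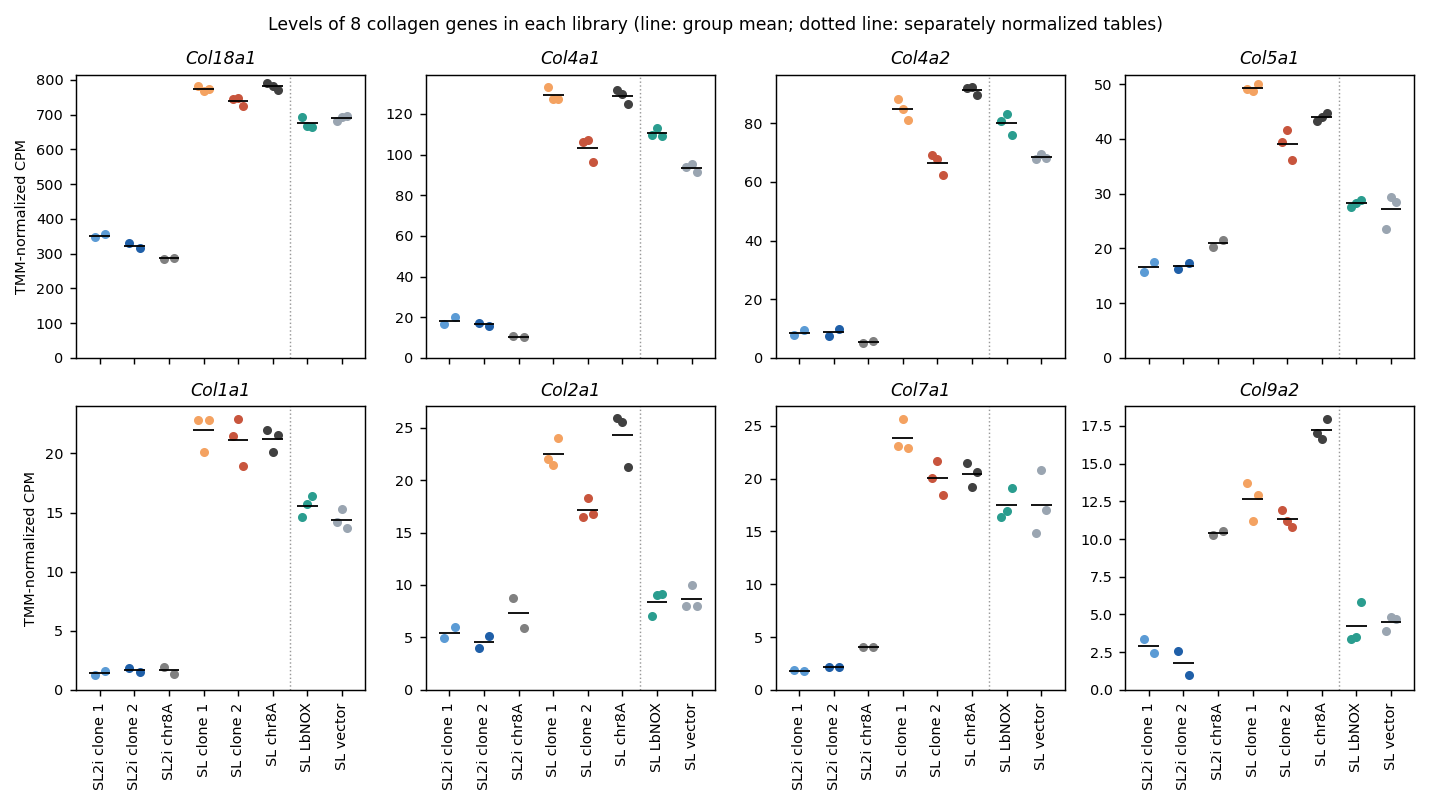
TMM-normalized CPM (y axis, starting at 0) of 8 collagen genes in every library (points) of the 8 groups (x axis), with the group mean as a line; the dotted line parts the separately normalized tables. All 8 genes were lower in SL2i than in SL in each line, and Col4a1, Col4a2 and Col18a1 stood higher in both SL2i clones than in SL2i chr8A.

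The chromosomal layout and start regions of the genes were read from RefSeq on build GRCm38.p6. The counts were made on GRCm39, so the coordinates below only locate the printed sequences. Several collagen genes are neighbours among protein-coding genes: Col4a1 and Col4a2 on chromosome 8, Col4a5 and Col4a6 on the X chromosome, Col6a1 and Col6a2 on chromosome 10, and Col3a1 and Col5a2 on chromosome 1. Col4a1 and Col4a2 lie head to head, on opposite strands. Their annotated starts are so close that 22 bases belong to both transcripts. This stretch is shown because both genes are followed side by side in each comparison. It lies at chr8:11312801-11312830 and is written on the plus strand, with the 22 shared bases in capitals; Col4a2 starts at the first capital and runs to the right, and Col4a1 starts at the last capital and runs to the left.
Col4a2 and Col4a1 starts: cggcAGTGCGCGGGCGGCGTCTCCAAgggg
RefSeq gave 38 upstream windows of 250 bases for 35 of the 44 genes. The letters GGGCGG, known as a GC box, were found on either strand in 22 of these windows (57.9%), against 32.7% of all 32851 windows. CCAAT was found in 34.2% of the collagen windows and 33.8% of all windows, and TATAAA in 13.2 and 12.4%. Each motif was searched on its own on both strands, and a match says only that the letters are there. The windows of 3 genes that were lower in SL2i are shown because they were lower by unlike amounts, Col5a1 by the least of the 3 and Col3a1 with no read in SL2i. All are on the plus strand, with matches to the 3 motifs in capitals, at chr2:27886175-27886424 for Col5a1, chr9:108953336-108953585 for Col7a1 and chr1:45311288-45311537 for Col3a1.
Col5a1 upstream: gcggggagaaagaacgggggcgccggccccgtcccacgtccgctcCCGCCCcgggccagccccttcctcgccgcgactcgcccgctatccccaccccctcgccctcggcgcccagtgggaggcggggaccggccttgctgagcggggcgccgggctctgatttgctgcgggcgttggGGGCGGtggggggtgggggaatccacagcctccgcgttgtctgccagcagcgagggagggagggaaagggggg
Col7a1 upstream: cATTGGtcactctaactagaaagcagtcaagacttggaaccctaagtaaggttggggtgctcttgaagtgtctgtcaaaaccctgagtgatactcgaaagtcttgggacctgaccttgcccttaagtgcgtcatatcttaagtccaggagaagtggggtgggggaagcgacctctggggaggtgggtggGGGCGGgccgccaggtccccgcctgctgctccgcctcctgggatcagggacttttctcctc
Col3a1 upstream: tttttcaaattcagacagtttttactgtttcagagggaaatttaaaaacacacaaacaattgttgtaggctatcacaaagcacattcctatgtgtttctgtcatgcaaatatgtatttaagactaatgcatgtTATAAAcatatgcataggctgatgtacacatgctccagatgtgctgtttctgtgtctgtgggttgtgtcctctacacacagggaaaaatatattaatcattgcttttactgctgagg
The Col5a1 window holds GGGCGG on both strands and is 76.4% G and C. The Col7a1 window holds GGGCGG and, on the minus strand, CCAAT, and is 56.4% G and C. The Col3a1 window holds TATAAA alone of the 3 motifs and is 35.2% G and C. No link between these letters and the levels was tested.

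Growth in SL2i and SL was compared within each line. In all 3 lines most collagen genes were lower in SL2i. The type IV genes Col4a1 and Col4a2 fell by 2.64 to 4.07 log2 units, Col1a1 by 3.62 to 3.95, and Col18a1 by 1.14 to 1.45. A small set was higher, led by Col17a1, Col13a1, Col26a1 and Col6a3. A gene was called at an adjusted p under 0.05 in the quasi-likelihood test of edgeR, after Benjamini-Hochberg adjustment over all 17178 genes tested. Of the 44 genes, 37 passed the filter on low counts; Col4a3, Col6a6, Col9a1, Col10a1, Col15a1, Col19a1 and Col28a1 did not. In clone 1 33 of the 37 were called, 4 higher and 29 lower, where 73% of all genes were called, 35.9% higher and 37.1% lower. In clone 2 32 were called, 4 higher and 28 lower (73.1% of all genes, 35.8% higher and 37.2% lower). In chr8A 33 were called, 5 higher and 28 lower (72.8% of all genes, 36.1% higher and 36.8% lower). The share of the 37 called lower was 78.4% in clone 1, 75.7% in clone 2 and 75.7% in chr8A. Called at least 2-fold lower were 27 genes in clone 1, 27 in clone 2 and 24 in chr8A, against 19.9%, 19.5% and 20% of all genes. The median log2 fold change of the 37 was -2.13 in clone 1, -1.93 in clone 2 and -1.78 in chr8A, where the medians of all genes were -0.0025, -0.0072 and 0.00088. With genes at 3 or fewer reads in a group set at their count ratio or bound, the medians of the 37 were -2.13, -1.89 and -1.78. A gene that is high in SL passes the filter through SL alone, so these counts describe the tested genes and support no statement about all 44.

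**Figure D3:**
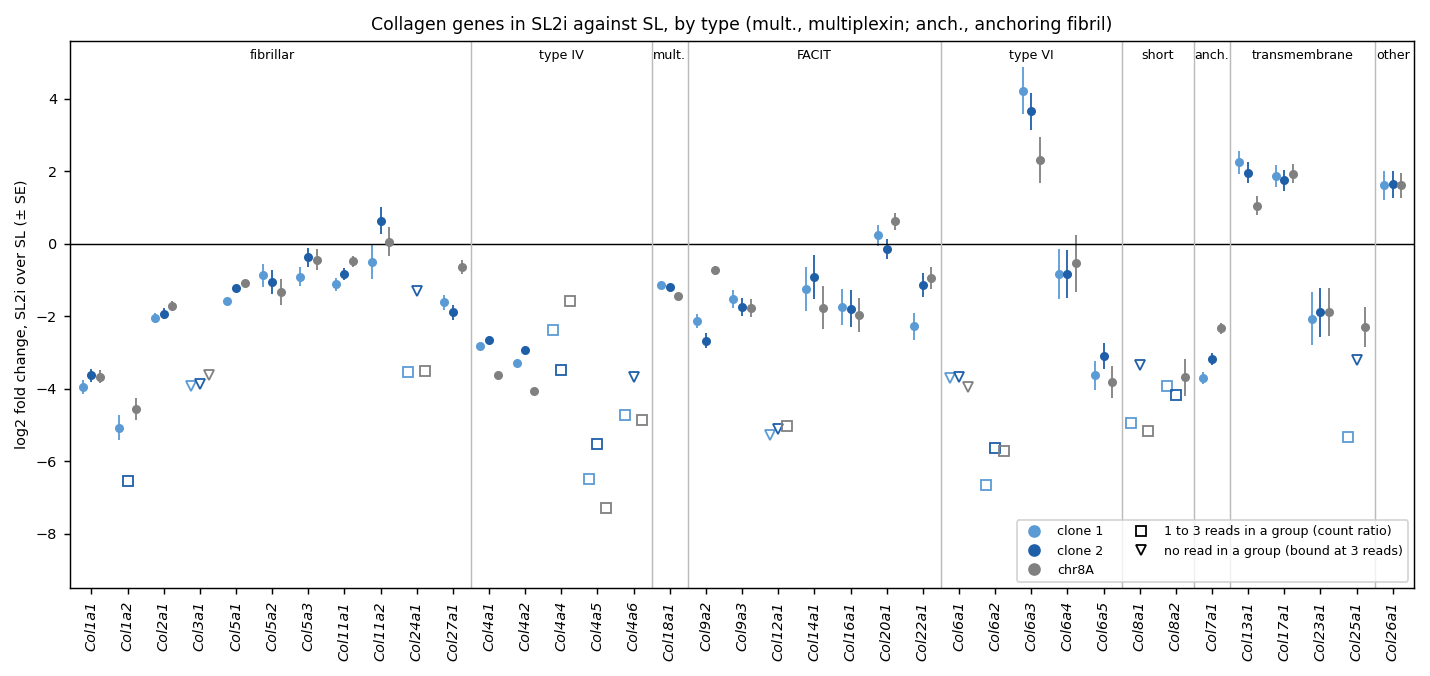
Log2 fold change of SL2i over SL (y axis) for the tested collagen genes (x axis, by type) in clone 1, clone 2 and chr8A; filled points are fitted values ± SE, squares are count ratios where a group had 1 to 3 reads, and triangles are bounds against 3 reads where a group had none. The tested type IV genes lie below 0, and Col6a3, Col13a1, Col17a1 and Col26a1 lie above 0 in all 3 lines.

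The 5 tested type IV genes had lower median log2 fold changes, at -3.30 in clone 1, -3.31 in clone 2 (-3.48 with bounds) and -4.07 in chr8A, than the 11 fibrillar genes, at -1.61, -1.89 (-1.31 with bounds) and -1.34. Col4a1 and Col4a2 encode the chains of the trimer found in nearly all basement membranes. Col4a1 stood at 16.5 and 20.3 CPM in SL2i clone 1, 17.1 and 15.8 CPM in SL2i clone 2 and 10.7 and 10.1 CPM in SL2i chr8A, against 133, 128 and 127 CPM in SL clone 1, 106, 107 and 96.3 CPM in SL clone 2 and 132, 129.9 and 125 CPM in SL chr8A. The highest SL2i library was well below the lowest SL library. The log2 fold change was -2.81 ± 0.070 (SE) in clone 1, -2.64 ± 0.072 in clone 2 and -3.63 ± 0.078 in chr8A, with adjusted p of 1.16e-59, 2.52e-56 and 1.64e-65 (edgeR). Col4a2 stood at 7.71 and 9.46 CPM in SL2i clone 1, 7.62 and 9.79 CPM in SL2i clone 2 and 5.22 and 5.63 CPM in SL2i chr8A, against 88.3, 84.9 and 81.2 CPM in SL clone 1, 69.0, 67.8 and 62.3 CPM in SL clone 2 and 92.1, 92.2 and 89.5 CPM in SL chr8A. It fell further than its neighbour on the fitted scale, by 3.30 ± 0.091 log2 units in clone 1, 2.92 ± 0.091 in clone 2 and 4.07 ± 0.097 in chr8A. As a level per kilobase, Col4a1 was 1.51 times Col4a2 in SL2i chr8A (1.40 and 1.61 in its libraries), against 1.11 times in SL chr8A (1.09 to 1.12). In the clones the ratio was 1.68 in SL2i clone 1 and 1.52 in SL2i clone 2, against 1.20 in SL clone 1 and 1.22 in SL clone 2. The SL2i clone 2 libraries lay far apart, at 1.763 and 1.269, the lower one close to the SL clone 2 range of 1.205 to 1.239. This difference in ratio between the media was not tested.

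The other type IV chains had few reads in SL2i. Col4a5 and Col4a6, which pair in basement membranes of smooth muscle and other sites, are a second head-to-head pair. Col4a5 had 2 and 0 reads in SL2i clone 1, 1 and 2 in SL2i clone 2 and 1 and 0 in SL2i chr8A. In SL it had 149, 160 and 174 reads in clone 1, 113, 226 and 183 in clone 2 and 183, 170 and 221 in chr8A, which is 7.64, 6.60 and 8.60 CPM in chr8A. Its level was 89.5-fold lower in SL2i in clone 1 (95% exact binomial interval 24.6 to 741), 46.1-fold lower in clone 2 (15.7 to 224) and 156-fold lower in chr8A (27.9 to 6168). Col4a6 had 1 read over both SL2i libraries of clone 1, none in clone 2 and 1 in chr8A, against 71, 145 and 107 reads over the SL libraries. That is 26.3-fold lower in clone 1 (interval 4.57 to 1054), at least 12.8-fold lower in clone 2 and 29.1-fold lower in chr8A (interval 5.11 to 1158). Both genes were called in all 3 lines. Col4a4 was called lower in both clones, with 2 reads in SL2i clone 1 against 28 in SL, and 1 in SL2i clone 2 against 42 in SL. The clone 1 call was lost without SL clone 1 replicate 2, without SL2i clone 1 replicate 1 or with DESeq2 (adjusted p up to 0.261), and the clone 2 call without SL2i clone 2 replicate 1 (adjusted p = 0.0888). In chr8A it had 3 reads in SL2i against 33 in SL and was not called (adjusted p = 0.107). Col4a3 had too few reads to be tested, with 3 to 7 per SL2i group and 18 to 28 per SL group of these lines, and the lines did not go one way. Its level was 0.349 ± 0.196 CPM in SL2i clone 1 against 0.526 ± 0.00768 CPM in SL clone 1, and 0.146 ± 0.0658 CPM in SL2i clone 2 against 0.332 ± 0.0523 CPM in SL clone 2 (SD, n = 2 in SL2i and 3 in SL). In chr8A it was higher in SL2i by its mean, 0.340 ± 0.202 CPM against 0.237 ± 0.0607 CPM in SL, and 5.13% of the sequence words of Col4a3 occur in other genes. Such intervals cover counting error only, and the bounds leave out the error of the counted side.

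Type I collagen, the main collagen of bone, skin and tendon, was low in SL and near absent in SL2i. Col1a1 stood at 1.27 and 1.56 CPM in SL2i clone 1, 1.88 and 1.54 CPM in SL2i clone 2 and 1.93 and 1.38 CPM in SL2i chr8A, against 22.8, 20.1 and 22.9 CPM in SL clone 1, 21.5, 22.9 and 18.9 CPM in SL clone 2 and 22.0, 20.1 and 21.6 CPM in SL chr8A. Its log2 fold change was -3.95 ± 0.19 in clone 1, -3.62 ± 0.18 in clone 2 and -3.67 ± 0.18 in chr8A (adjusted p at most 8.42e-36). Col1a2, the other chain of type I collagen, had 6 and 0 reads in SL2i clone 1, 0 and 2 in SL2i clone 2 and 4 and 6 in SL2i chr8A. In SL it stood at 11.3, 10.2 and 9.83 CPM in clone 1, 10.3, 9.59 and 7.84 CPM in clone 2 and 11.8, 10.8 and 12.5 CPM in chr8A. The log2 fold change was -5.07 ± 0.34 in clone 1 and -4.56 ± 0.29 in chr8A, and in clone 2 the level was 92.8-fold lower (interval 25.6 to 767). Col3a1, the chain of type III collagen of vessels and skin, had no read in any of the 6 SL2i libraries. It had 39, 31 and 52 reads in the SL clone 1 libraries, 34, 63 and 69 in SL clone 2 and 34, 33 and 69 in SL chr8A, and so was at least 15.1-fold, 14.7-fold and 12.3-fold lower in SL2i in clone 1, clone 2 and chr8A.

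Type V and type II collagen fell less. Col5a1, a chain of type V collagen that regulates the width of type I fibrils, stood at 15.6 and 17.5 CPM in SL2i clone 1, 16.2 and 17.3 CPM in SL2i clone 2 and 20.2 and 21.6 CPM in SL2i chr8A. In SL its level was 49.1, 48.7 and 50.1 CPM in clone 1, 39.4, 41.6 and 36.2 CPM in clone 2 and 43.3, 44.1 and 44.7 CPM in chr8A. The media did not overlap in any line, and the log2 fold change was -1.57 ± 0.086 in clone 1, -1.22 ± 0.086 in clone 2 and -1.07 ± 0.080 in chr8A. Its partner chain Col5a2, the neighbour of Col3a1, stood at 1.16 and 0.691 CPM in SL2i chr8A against 2.96, 2.02 and 2.10 CPM in SL chr8A, a change of -1.34 ± 0.35. In the clones Col5a2 changed by -0.87 ± 0.33 and -1.05 ± 0.32, and these calls were lost without SL2i clone 1 replicate 2 (adjusted p = 0.244) and without SL2i clone 2 replicate 1 (adjusted p = 0.0586). Col2a1, the collagen of cartilage, changed by -2.04 ± 0.14 in clone 1, -1.93 ± 0.15 in clone 2 and -1.72 ± 0.13 in chr8A, with 8.79 and 5.92 CPM in SL2i chr8A against 25.9, 25.6 and 21.3 CPM in SL chr8A. Col11a1, of the type XI collagen that nucleates cartilage fibrils, changed by -1.12 ± 0.17, -0.84 ± 0.16 and -0.48 ± 0.15 in clone 1, clone 2 and chr8A. Col27a1, a fibrillar chain of cartilage, changed by -1.61 ± 0.21, -1.89 ± 0.22 and -0.63 ± 0.19. Of the 11 fibrillar genes, all tested, 10 fell in clone 1, 9 in clone 2 and 9 in chr8A, and none rose. Col11a2 was not called in any line, and Col5a3 was called in clone 1 alone, at -0.91 ± 0.26, a call lost without SL2i clone 1 replicate 1 (adjusted p = 0.0711).

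Col18a1 was the gene with the most reads and the narrowest error. It stood at 347 and 356 CPM in SL2i clone 1, 329 and 317 CPM in SL2i clone 2 and 286 and 288 CPM in SL2i chr8A. In SL its level was 782, 769 and 774 CPM in clone 1, 745, 748 and 724 CPM in clone 2 and 790.1, 783 and 770.2 CPM in chr8A. Replicates differed by a few percent where the media differed more than 2-fold. The log2 fold change was -1.14 ± 0.033 in clone 1, -1.19 ± 0.033 in clone 2 and -1.45 ± 0.033 in chr8A (adjusted p of 1.01e-55, 2.16e-57 and 2.16e-64). Its relative Col15a1, the other multiplexin, had 0 to 3 reads per SL2i library and 1 to 8 per SL library of these lines and was not tested.

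Col7a1 encodes the collagen of the fibrils that anchor the basement membrane of skin. Its level was 1.90 and 1.76 CPM in SL2i clone 1, 2.18 and 2.21 CPM in SL2i clone 2 and 4.06 and 4.05 CPM in SL2i chr8A, against 23.1, 25.6 and 22.9 CPM in SL clone 1, 20.03, 21.7 and 18.4 CPM in SL clone 2 and 21.5, 19.2 and 20.7 CPM in SL chr8A. It fell by 3.70 ± 0.17 log2 units in clone 1, 3.19 ± 0.17 in clone 2 and 2.33 ± 0.14 in chr8A. Among the fibril-associated collagens, which lie on the surface of fibrils, Col9a2 of type IX stood at 3.38 and 2.44 CPM in SL2i clone 1, 2.57 and 0.960 CPM in SL2i clone 2 and 10.2 and 10.6 CPM in SL2i chr8A. In SL Col9a2 stood at 13.8, 11.2 and 12.9 CPM in clone 1, 11.9, 11.2 and 10.8 CPM in clone 2 and 17.0, 16.7 and 17.9 CPM in chr8A. Its log2 fold change was -2.13 ± 0.19, -2.67 ± 0.21 and -0.73 ± 0.13 in clone 1, clone 2 and chr8A. Col9a3, another chain of type IX, changed by -1.52 ± 0.25, -1.75 ± 0.26 and -1.78 ± 0.24; its value is uncertain because its exons overlap Tcfl5 on the other strand over 6.07% of their length. Col12a1, which binds type I fibrils, had no read in the SL2i clones and 0 and 3 reads in SL2i chr8A, against 316, 391 and 359 reads over the SL libraries of clone 1, clone 2 and chr8A. It was at least 39.0-fold and 34.5-fold lower in the clones, and 32.5-fold lower in chr8A (interval 11.03 to 158).

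The genes of type VI collagen, which forms beaded microfibrils around cells, went both ways. Col6a1 had no read in any SL2i library and 38, 27 and 41 reads in SL clone 1, 43, 50 and 51 in SL clone 2 and 54, 62 and 54 in SL chr8A. It was at least 13.1-fold, 12.7-fold and 15.4-fold lower in SL2i in the 3 lines in that order. Its neighbour and partner chain Col6a2 had 1, 2 and 2 reads over the SL2i libraries of clone 1, clone 2 and chr8A, against 274, 376 and 384 in SL. Col6a3, which completes the usual type VI trimer, was higher in SL2i, with 18 and 19 reads in SL2i clone 1, 28 and 20 in SL2i clone 2 and 12 and 6 in SL2i chr8A. In the deeper SL libraries it had 0, 3 and 2 reads in clone 1, 2, 4 and 8 in clone 2 and 2, 9 and 2 in chr8A. The log2 fold change was 4.22 ± 0.65, 3.65 ± 0.52 and 2.31 ± 0.64, and the chr8A call was lost without SL2i chr8A replicate 1 (adjusted p = 0.0957). Col6a5, a chain that can take the place of Col6a3, fell by 3.62 ± 0.40, 3.09 ± 0.36 and 3.81 ± 0.44 log2 units in clone 1, clone 2 and chr8A. In these cultures Col6a3 thus did not share the direction of its partner chains Col6a1 and Col6a2, on few reads in either medium.

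Besides Col6a3, Col17a1, Col13a1 and Col26a1 rose in SL2i in every line and Col20a1 in chr8A. Col17a1, the transmembrane collagen of hemidesmosomes, stood at 4.64 and 3.80 CPM in SL2i clone 1, 4.16 and 3.46 CPM in SL2i clone 2 and 4.74 and 4.94 CPM in SL2i chr8A, against 1.11, 1.54 and 0.804 CPM in SL clone 1, 1.55, 1.14 and 0.849 CPM in SL clone 2 and 1.09, 1.44 and 1.25 CPM in SL chr8A. Its change was 1.87 ± 0.29, 1.75 ± 0.29 and 1.94 ± 0.27 in clone 1, clone 2 and chr8A. Col13a1, a transmembrane collagen of the neuromuscular junction, stood at 3.48 and 4.39 CPM in SL2i clone 1, 3.96 and 3.46 CPM in SL2i clone 2 and 2.996 and 4.74 CPM in SL2i chr8A. In SL it stood at 0.899, 0.591 and 0.977 CPM in clone 1, 0.992, 1.27 and 0.588 CPM in clone 2 and 1.80, 1.71 and 2.06 CPM in chr8A, so that the change was 2.25 ± 0.32, 1.96 ± 0.30 and 1.05 ± 0.27. The chr8A call of Col13a1 was lost without SL2i chr8A replicate 2 (adjusted p = 0.108). Col26a1 changed by 1.61 ± 0.40, 1.64 ± 0.37 and 1.61 ± 0.35, with 2.32 and 3.16 CPM in SL2i chr8A against 0.919, 0.738 and 1.01 CPM in SL chr8A. Col20a1, a fibril-associated collagen, was called in chr8A alone at 0.62 ± 0.24, and that call was lost without SL chr8A replicate 3, without SL2i chr8A replicate 1 or with no filter (adjusted p up to 0.332). The transmembrane genes Col23a1 and Col25a1 fell in all 3 lines, as did the short-chain genes Col8a1 and Col8a2, which form the network of the corneal endothelial membrane. Col23a1 had 4, 5 and 5 reads over the SL2i libraries of clone 1, clone 2 and chr8A, against 46, 70 and 69 in SL. Its calls were lost without SL2i clone 1 replicate 1 or SL clone 1 replicate 2 (adjusted p up to 0.11), without SL2i clone 2 replicate 1 (0.154) and without SL2i chr8A replicate 1 (0.171).

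The rest of the tested genes fell or did not pass the test. Col16a1, a fibril-associated collagen, fell by 1.74 ± 0.49, 1.78 ± 0.50 and 1.96 ± 0.47 log2 units in clone 1, clone 2 and chr8A, and Col22a1, a fibril-associated collagen of the junction of muscle and tendon, by 2.28 ± 0.37, 1.14 ± 0.33 and 0.94 ± 0.30. Col24a1, a fibrillar collagen, had 1, 0 and 1 reads over the SL2i libraries of clone 1, clone 2 and chr8A, against 31, 28 and 42 in SL. It was called in all 3 lines, but not without SL2i clone 1 replicate 2 (adjusted p = 0.0959) or SL2i chr8A replicate 1 (0.0858). Col14a1, a relative of Col12a1, was called in chr8A alone, at -1.76 ± 0.59, and not without SL2i chr8A replicate 1 (adjusted p = 0.0501). Col6a4 was not called in any line, at -0.83 ± 0.69, -0.83 ± 0.67 and -0.54 ± 0.79.

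Each line had 2 SL2i libraries, and of the medium calls 28 of 33 in clone 1, 29 of 32 in clone 2 and 27 of 33 in chr8A held under every alternative processing and with each library left out. Markers of other cells were followed beside the collagens, where 35.8 to 36.1% of all genes were called higher in SL2i and 36.8 to 37.2% lower. Of 14 fibroblast markers 9 could be tested. In SL2i 5 of them fell and 2 rose in each clone, and in chr8A 6 fell and 3 rose. Their summed level was 79.2 to 86.7 CPM in SL2i clone 1, 78.3 to 81.1 CPM in SL2i clone 2 and 136 to 144 CPM in SL2i chr8A, against 126 to 131 CPM in SL clone 1, 104 to 117 CPM in SL clone 2 and 133 to 136 CPM in SL chr8A. Acta2, smooth muscle actin, had a mean of 0.0488 and 0.0495 CPM in SL2i clones 1 and 2 and no read in SL2i chr8A, against 68.8, 54.1 and 70.7 CPM in SL, while Fbln1, an extracellular matrix protein, was higher in SL2i. Acta2 made up much of the fibroblast sum in SL and Fbln1 most of it in SL2i, so the sums of the media compare unlike genes. Dcn and Postn had no read in any SL2i group and at most 0.885 CPM in SL, and Dpt had none in any group. Of 12 tested markers of primitive and parietal endoderm, clone 1 had 7 lower and 3 higher in SL2i, clone 2 had 7 and 4, and chr8A had 6 and 4. The 16 markers summed to 1704 to 1855 CPM in SL2i and 1215 to 1368 CPM in the SL libraries of the same lines, of which the laminin gene Lamc1 and Sparc made up most. In SL2i 7 of the 16 reached 1 CPM in each line, and Sox7, Cubn and Ttr had no read in clone 1, Afp none in clone 2, and Foxa2 and Afp none in chr8A. Among the markers that fell, Lamb1, the laminin beta chain that assembles beside type IV collagen, changed by -3.58 ± 0.054, -3.53 ± 0.053 and -3.25 ± 0.050 in clone 1, clone 2 and chr8A. Lamb1 does not stand for the list, since the sum of the 16 was higher in SL2i in each line. The 10 mesoderm markers summed to 28.4 to 32.2 CPM in SL2i clone 1, 28.5 to 29.5 CPM in SL2i clone 2 and 21.6 to 24.3 CPM in SL2i chr8A, against 16.9 to 21.5 CPM in SL, and T had no read in any group. The 8 neural markers summed to 82.4 to 91.1 CPM in SL2i clone 1, 84.5 to 87.9 CPM in SL2i clone 2 and 56.1 to 59.9 CPM in SL2i chr8A, against 159.7 to 166 CPM in SL. The 12 ESC markers summed to 9332 to 9791 CPM in SL2i and 4576 to 4898 CPM in SL. What part other cell types had in the collagen differences was not tested.

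Genes that handle collagen after translation were counted in 5 lists, and the list medians were lower for secreted and surface genes than for genes of the endoplasmic reticulum. The counts below stand beside 35.8 to 36.1% of all genes called higher in SL2i and 36.8 to 37.2% called lower in the 3 lines. Of 13 tested genes for propeptide removal and crosslinking, 11 fell and 1 rose in SL2i in clone 1, 11 and 1 in clone 2, and 10 and 2 in chr8A, with list medians of -2.95, -2.45 and -3.0. Pxdn, the peroxidasin that crosslinks type IV collagen, changed by -4.59 ± 0.085, -4.74 ± 0.088 and -4.46 ± 0.084, with a mean of 5.61 CPM in SL2i chr8A against 124 CPM in SL chr8A. Bmp1, the protease that removes the end propeptide of fibrillar chains, changed by -5.29 ± 0.19, -4.83 ± 0.19 and -5.25 ± 0.19. The lysyl oxidase relatives Loxl2 and Loxl4 fell by 3.43 and 3.32 log2 units in chr8A. Of 8 tested collagenases, gelatinases and their inhibitors 7 fell and 1 rose in every line (medians -2.61, -2.43 and -2.47 in clone 1, clone 2 and chr8A). Among these the membrane protease Mmp14 fell by 2.41 ± 0.067, the gelatinase Mmp2 by 3.16 ± 0.13, and the inhibitors Timp2 and Timp3 by 4.45 ± 0.21 and 4.26 ± 0.19 log2 units in chr8A. Of 7 tested collagen receptors, clone 1 had 5 lower and 2 higher, clone 2 had 4 and 2, and chr8A had 5 and 2. Ddr1, a receptor tyrosine kinase for collagen, stood at a mean of 24.7 CPM in SL2i chr8A against 228 CPM in SL chr8A (-3.21 ± 0.055). Its relative Ddr2 stood at 5.08 against 0.0926 CPM (5.67 ± 0.47), the opposite direction. The integrin chain Itgb1 fell by 1.43 ± 0.035 and the collagen uptake receptor Mrc2 by 4.49 ± 0.22 log2 units.

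The lists of the endoplasmic reticulum were mixed, with medians of -0.30, -0.28 and -0.44 for folding and export and -0.039, 0.18 and 0.18 for modification in clone 1, clone 2 and chr8A. Of 9 genes for folding and export 6 fell and 3 rose in each line, where 36.8 to 37.2% of all genes fell and 35.8 to 36.1% rose. Serpinh1, the collagen chaperone HSP47, stood at a mean of 58.3 CPM in SL2i clone 1, 60.6 CPM in SL2i clone 2 and 109 CPM in SL2i chr8A, against 239, 195 and 238 CPM in SL. Its change was -2.04 ± 0.048, -1.69 ± 0.047 and -1.13 ± 0.042. Fkbp10, another chaperone of fibrillar collagens, fell by 4.34 ± 0.13 and the transcription factor Creb3l1 by 3.02 ± 0.17 log2 units in chr8A, while Sec23a, of the coat of export vesicles, rose by 1.11 ± 0.041. Of 14 tested genes for prolyl and lysyl modification, clone 1 had 7 higher and 6 lower, clone 2 had 6 and 6, and chr8A had 7 and 5. Crtap and P3h1, partners in 3-hydroxylation of proline, rose by 1.51 ± 0.051 and 1.37 ± 0.064 in chr8A, and Colgalt1, which adds galactose to hydroxylysine, rose by 0.81 ± 0.040. Plod2, a lysyl hydroxylase, fell by 0.95 ± 0.055 log2 units. The lists were chosen with earlier results of these data known and are given as counts, with no test of a list.

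The clones were compared with chr8A in SL2i, where the 2 comparisons share the chr8A libraries. Both clones held more Col4a1, Col4a2 and Col18a1 and less Col9a2 and Col7a1 than chr8A. In clone 1 6 of 37 tested collagen genes were called, 3 higher and 3 lower, where 22.4% of all genes were called, 10.4% higher and 12.1% lower. In clone 2 10 were called, 4 higher and 6 lower, where 20.6% of all genes were called, 9.74% higher and 10.8% lower. These shares, 16.2% and 27%, count genes that passed the filter through SL and had few reads in SL2i. With only the groups compared in the fit, 20 collagen genes were tested in each clone. Then 6 were called in clone 1, where 3583 of 13930 genes were, and 8 in clone 2, where 3085 of 13984 genes were. The genes called and not their number are described. Col4a1 stood at 16.5 and 20.3 CPM in clone 1 and 17.1 and 15.8 CPM in clone 2, against 10.7 and 10.1 CPM in chr8A. The log2 fold change of Col4a1 was 0.83 ± 0.13 in clone 1 (adjusted p = 1.06e-07) and 0.66 ± 0.13 in clone 2 (adjusted p = 2.81e-05). Col4a2 changed by 0.67 ± 0.18 in clone 1 (adjusted p = 0.00268) and 0.69 ± 0.18 in clone 2 (adjusted p = 0.0019). Its calls rested on single libraries: the change was 0.52 without SL2i clone 1 replicate 2 (adjusted p = 0.116) and 0.50 without SL2i clone 2 replicate 2 (adjusted p = 0.125). Col18a1, with 347 and 356 CPM in clone 1 and 329 and 317 CPM in clone 2 against 286 and 288 CPM in chr8A, changed by 0.29 ± 0.037 and 0.17 ± 0.037 (adjusted p = 1.38e-10 and 0.000129).

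Col9a2 gave the widest fitted difference between clones and chr8A among called genes with more than 3 reads in each group. In SL2i it stood at 3.38 and 2.44 CPM in clone 1 and 2.57 and 0.960 CPM in clone 2, against 10.2 and 10.6 CPM in chr8A. The log2 fold change was -1.84 ± 0.22 in clone 1 (adjusted p = 1.12e-11) and -2.56 ± 0.24 in clone 2 (adjusted p = 5.42e-16). Its partner chain Col9a3 changed by 0.13 ± 0.36 and -0.17 ± 0.37 and was not called, so the level of Col9a2 per kilobase was 1.73 times that of Col9a3 in SL2i clone 1 and 1.27 times in SL2i clone 2, against 6.66 times in SL2i chr8A. Per library these ratios were 1.34 and 2.12, 0.703 and 1.83, and 6.63 and 6.69; in SL they averaged 2.60 in clone 1 and 2.42 in clone 2, against 3.23 in chr8A. Col7a1 changed by -1.15 ± 0.28 in clone 1 and -0.88 ± 0.27 in clone 2; the clone 2 call was lost without SL2i chr8A replicate 1 or either SL2i clone 2 library (adjusted p up to 0.0668). Col5a1 changed by -0.33 ± 0.11 and -0.32 ± 0.11. Its clone 1 call was lost without SL2i chr8A replicate 2 (adjusted p = 0.181) or SL2i clone 1 replicate 1 (0.227), and its clone 2 call without any of the 4 libraries compared (0.0611 to 0.208). In clone 2 alone Col2a1 changed by -0.70 ± 0.21, Col27a1 by -0.98 ± 0.28 and Col6a3 by 1.41 ± 0.53. Col25a1, also called in clone 2 alone, had no read there against 6 in chr8A. That is 2.00-fold lower if clone 2 is set at 3 reads, with the error of the 6 reads left out. Each of these 4 calls was lost without SL2i chr8A replicate 1 (adjusted p up to 0.385, 0.203, 0.349 and 0.404 over the alternatives), and leaving out single libraries gave 4 to 8 called genes in clone 2. The calls that held throughout were Col4a1, Col18a1, Col7a1 and Col9a2 in clone 1 and Col4a1, Col18a1 and Col9a2 in clone 2.

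Of the genes that handle collagen, Serpinh1 was lower in both SL2i clones, at a mean of 58.3 CPM in clone 1 and 60.6 CPM in clone 2 against 109 CPM in chr8A (-0.91 ± 0.058 and -0.85 ± 0.057). Pcolce, which speeds the removal of propeptides by Bmp1, fell by 0.92 ± 0.085 in clone 1 and 0.94 ± 0.084 in clone 2, and its relative Pcolce2 by 0.65 ± 0.11 and 0.53 ± 0.10 log2 units. Plod2 rose by 0.38 ± 0.068 and 0.49 ± 0.067, Ddr1 rose by 0.46 ± 0.082 and 0.39 ± 0.082, and P4ha1, a catalytic subunit of prolyl 4-hydroxylase, changed by -0.54 ± 0.092 and -0.39 ± 0.090. In the 5 lists of collagen handling, with 51 tested genes, clone 1 had 3 higher and 5 lower and clone 2 had 4 and 9. Of all genes 10.4% were called higher and 12.1% lower in SL2i clone 1, and 9.74% and 10.8% in SL2i clone 2. Fbln1 was the 1 fibroblast marker called in either clone, at a mean of 70.9 CPM in clone 1 and 66.2 CPM in clone 2 against 128 CPM in chr8A, and among endoderm markers Dab2 was higher in both clones (2.19 ± 0.29 and 2.09 ± 0.29) and Lamb1 lower (-0.42 ± 0.081 and -0.46 ± 0.080). The part of the handling genes and of these markers in the collagen differences was not tested.

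In SL the clones were compared with chr8A in the same way. In clone 1 5 of the 37 tested genes were called, 3 higher and 2 lower, where 16.6% of all genes were called, 8.83% higher and 7.77% lower. In clone 2 8 were called, all lower, where 26.9% of all genes were called, 14.3% higher and 12.6% lower. The share called was 13.5% in clone 1 and 21.6% in clone 2, both below those of all genes. By direction, the 21.6% called lower in clone 2 lies above the 12.6% of all genes, and no collagen gene was called higher. In SL clone 2, 4 of 9 tested fibroblast markers, 4 of 12 endoderm markers and 1 of 7 mesoderm markers were called lower and none higher. Of 5 tested neural markers none was called there, and of the 12 ESC markers 3 were called higher and 6 lower. Col4a1 stood at 133, 128 and 127 CPM in clone 1 and 106, 107 and 96.3 CPM in clone 2, against 132, 129.9 and 125 CPM in chr8A. Clone 2 lay below chr8A in every library (-0.32 ± 0.037, adjusted p = 8.76e-12), and clone 1 overlapped it (0.0052 ± 0.037, adjusted p = 0.954). Col4a2 changed by -0.46 ± 0.042 in clone 2 (adjusted p = 3.07e-16) and by -0.11 ± 0.043 in clone 1 (adjusted p = 0.0785; 0.0278 with only the groups compared in the fit). The direction of the type IV pair in clone 2 was thus lower in SL and higher in SL2i.

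Col9a2 was lower in both clones in SL as well, with 13.8, 11.2 and 12.9 CPM in clone 1 and 11.9, 11.2 and 10.8 CPM in clone 2 against 17.0, 16.7 and 17.9 CPM in chr8A (-0.44 ± 0.093 and -0.62 ± 0.089; adjusted p = 0.000158 and 2.23e-08). Col13a1 stood at 0.899, 0.591 and 0.977 CPM in clone 1 and 0.992, 1.27 and 0.588 CPM in clone 2, against 1.80, 1.71 and 2.06 CPM in chr8A, and changed by -1.16 ± 0.29 and -0.97 ± 0.26. The clone 1 call of Col13a1 was lost with DESeq2, and the clone 2 call without SL clone 2 replicate 3 or with depth made equal (adjusted p up to 0.109). Col5a1 went opposite ways, at 0.16 ± 0.053 in clone 1 and -0.17 ± 0.052 in clone 2, and both calls were lost under some alternatives (adjusted p up to 0.176 and 0.248), among them the fits without SL chr8A replicate 1 (0.0689), SL clone 1 replicate 1 (0.0571) or SL clone 1 replicate 3 (0.09) for clone 1 and without SL clone 2 replicate 3 (0.132) for clone 2. Col5a3, a minor chain of type V collagen, rose by 0.85 ± 0.18 in clone 1 (adjusted p = 0.000268), and Col7a1 by 0.22 ± 0.074, a call lost without SL chr8A replicate 2 or 3 or SL clone 1 replicate 2 (adjusted p up to 0.274). In clone 2 Col2a1 fell by 0.49 ± 0.075 log2 units, with 16.5, 18.3 and 16.8 CPM against 25.9, 25.6 and 21.3 CPM in chr8A. Col1a2 changed by -0.36 ± 0.11 and Col18a1 by -0.080 ± 0.027 in clone 2. Both calls were lost without SL clone 2 replicate 3 (adjusted p = 0.135 and 0.0907), that of Col18a1 also without SL chr8A replicate 1 (0.06), and 4 genes in place of 8 were called without SL clone 2 replicate 3. Of the 51 tested genes that handle collagen, SL clone 1 had 11 higher and 4 lower, and SL clone 2 had 7 and 11. Of all genes 8.83% were called higher and 7.77% lower in SL clone 1, and 14.3% and 12.6% in SL clone 2.

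**Figure D4:**
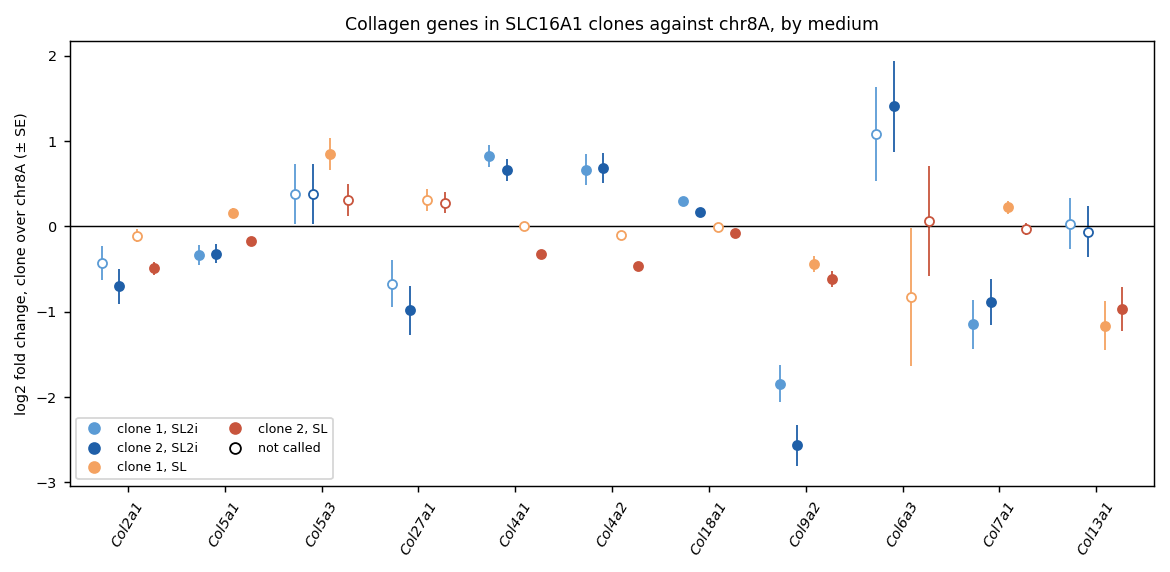
Log2 fold change of each clone over chr8A (y axis, ± SE) for the 11 collagen genes called in at least 1 clone with more than 3 reads in each group (x axis), in SL2i and in SL; filled points were called and open points were not. Col4a1, Col4a2 and Col18a1 lie above 0 in SL2i and near or below 0 in SL, and Col9a2 lies below 0 throughout.

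Whether the medium difference itself differed between a clone and chr8A was tested as an interaction. It was called for 8 of 37 collagen genes in clone 1, 4 higher and 4 lower, where 17% of all genes were called, 7.78% higher and 9.24% lower. It was called for 6 in clone 2, 3 higher and 3 lower, where 16.9% of all genes were called, 7.69% higher and 9.18% lower. Col4a1 was 7.01-fold lower in SL2i than in SL in clone 1 and 6.24-fold lower in clone 2, against 12.4-fold in chr8A. The interaction of Col4a1 was 0.82 ± 0.13 in clone 1 (adjusted p = 6.93e-07) and 0.99 ± 0.13 in clone 2 (adjusted p = 5.25e-09). Col4a2 was 9.84-fold and 7.58-fold lower in the clones against 16.8-fold in chr8A, with interactions of 0.77 ± 0.18 and 1.15 ± 0.18; the clone 1 value was 0.63 without SL2i clone 1 replicate 2 (adjusted p = 0.0605), a library without which 5 genes were called in place of 8. Among the genes called, Col9a2 gave the interaction of largest size, -1.40 ± 0.24 in clone 1 and -1.95 ± 0.26 in clone 2 (adjusted p = 2.59e-06 and 5.2e-09). For Col7a1 it was -1.37 ± 0.29 and -0.86 ± 0.28, for Col27a1 -0.98 ± 0.30 and -1.26 ± 0.31, and for Col18a1 0.31 ± 0.045 and 0.25 ± 0.045. Col4a1, Col4a2 and Col18a1 fell less in the clones than in chr8A, and Col9a2, Col7a1 and Col27a1 fell more. The Col27a1 interaction was lost without SL2i clone 1 replicate 1 or 2 or SL2i chr8A replicate 1 in clone 1 (adjusted p up to 0.117) and without SL2i clone 2 replicate 2 in clone 2 (0.0691), and that of Col7a1 in clone 2 was lost without any 1 of the 4 SL2i libraries compared (up to 0.108). In clone 1 Col13a1 (1.19 ± 0.42) and Col5a1 (-0.50 ± 0.13) were called too, that of Col13a1 not without SL chr8A replicate 3, SL clone 1 replicate 2, SL2i chr8A replicate 1 or SL2i clone 1 replicate 2 (adjusted p up to 0.209). Both clones were set against the same chr8A libraries, so their values are not independent of each other.

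The comparison of LbNOX with vector cells asks which transcripts differ where an added enzyme oxidizes NADH. None of the 33 collagen genes tested was called with edgeR, nor with DESeq2, where 0.0372% of the 16119 genes tested were called with edgeR. An unadjusted p under 0.05 in edgeR was found for 3 of the 33. The share of all genes under this looser rule is not given here, and the 0.0372% does not stand for it. Col4a1 stood at 109.7, 113 and 109 CPM in LbNOX cells against 94.0, 95.4 and 91.2 CPM in vector cells. Every LbNOX library lay above every vector library, and the log2 difference was 0.24 ± 0.045 (adjusted p = 0.174). Col4a2 stood at 80.8, 83.2 and 75.9 CPM in LbNOX cells against 67.9, 69.6 and 68.3 CPM in vector cells, a difference of 0.22 ± 0.052 (adjusted p = 0.716), again with no overlap. The LbNOX and vector libraries did not overlap for 4 collagen genes, these 2 with Col17a1 and Col20a1, and for 9.64% of all genes tested. With vector replicate 2 and LbNOX replicate 3 left out, an alternative chosen after the data were seen, the differences were 0.26 for Col4a1 (adjusted p = 0.00243) and 0.27 for Col4a2 (adjusted p = 0.00607), and these 2 of 32 genes tested were called, where 0.303% of all genes were. With 2 libraries left in each group, 11 of the 32 genes did not overlap, the 4 above among them, as did 38.5% of all genes. With no filter on low counts Col4a1 alone was called (adjusted p = 0.00989).

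The other collagen genes with at least 5 CPM in this table did not separate the groups with all 6 libraries. Col18a1 stood at 694, 667 and 664 CPM in LbNOX cells against 681, 692 and 696 CPM in vector cells (-0.031 ± 0.035). The difference was 0.11 ± 0.091 for Col1a1, 0.067 ± 0.086 for Col5a1, -0.036 ± 0.14 for Col2a1, 0.0046 ± 0.12 for Col7a1, -0.17 ± 0.22 for Col11a1, -0.046 ± 0.19 for Col27a1 and 0.28 ± 0.17 for Col12a1. Without vector replicate 2 and LbNOX replicate 3 it was -0.017 ± 0.034 for Col18a1, 0.12 ± 0.10 for Col1a1, 0.13 ± 0.083 for Col5a1, 0.012 ± 0.14 for Col2a1, 0.082 ± 0.099 for Col7a1, -0.16 ± 0.20 for Col11a1, -0.05 ± 0.18 for Col27a1 and 0.35 ± 0.18 for Col12a1, none of them called, and of these genes Col1a1 then separated the groups. Col4a5 stood at 5.05, 5.73 and 4.52 CPM in LbNOX cells against 4.53, 5.07 and 4.96 CPM in vector cells, and Col4a6 at 0.627, 1.40 and 1.74 against 0.666, 1.64 and 0.846 CPM. Col3a1 had 3.21, 2.66 and 4.52 CPM in LbNOX cells against 3.37, 2.71 and 2.78 CPM in vector cells, Col1a2 had 2.31, 1.40 and 1.88 against 1.37, 2.05 and 1.51 CPM, and Col5a2 had 0.588, 0.559 and 0.938 against 0.600, 0.870 and 0.726 CPM. No gene of these separated the groups either with all 6 libraries; without the 2 named Col4a5 and Col5a2 did, and no gene of the 5 was called (0.20 ± 0.17 for Col4a5, 0.47 ± 0.43 for Col4a6, -0.097 ± 0.22 for Col3a1, 0.37 ± 0.31 for Col1a2 and -0.18 ± 0.48 for Col5a2). No gene of the 5 lists of collagen handling was called with or without these libraries. The summed level of the fibroblast markers was 69.7 to 72.3 CPM in LbNOX cells against 63.1 to 69.2 CPM in vector cells. Without the 2 libraries this sum was 71.0 to 72.3 CPM in LbNOX cells against 63.1 to 63.3 CPM in vector cells, and 1 of the 11 fibroblast markers tested, Acta2, was called higher; the part of these markers in the Col4a1 and Col4a2 differences was not tested.

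The SL cells of the 2 tables differed in their collagen profile, which is given as a description because the tables were scaled separately and the lines and cultures differ. Col1a1 per kilobase was 1.85, 2.02 and 1.60 times Col1a2 in SL clone 1, clone 2 and chr8A, against 7.72 times in LbNOX cells and 7.91 times in vector cells. Col5a1 per kilobase was 14.9, 11.9 and 14.9 times Col5a2 in SL clone 1, clone 2 and chr8A, against 33.2 and 29.1 times in LbNOX and vector cells. These ratios lie within 1 library and do not depend on the scaling. Col4a1 and Col4a2, in contrast, kept a ratio of 1.07 to 1.22 in all 5 SL groups.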

How the data were processed

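RNA was poly(A)-selected and made into libraries with a TruSeq stranded kit, per the labels' protocols. Per the submitters' processing notes the authors used DRAGEN 3.10, featureCounts of Subread and build GRCm39; no source here states whether counting used strand, so reads of overlapping antisense genes cannot be told apart. The deposited values are raw counts per gene in 2 tables with gene lengths, each fitted on its own. Genes were kept with filterByExpr, scaled with TMM and tested with edgeR 4.0.16 (quasi-likelihood, 1 mean per group, Benjamini-Hochberg adjustment over all genes tested, adjusted p under 0.05 called) in R 4.3.3. The steps were also run on simulated data with planted changes, which did not examine the interactions, and no result here rests on that run. The 15 libraries of the clones and chr8A shared 1 fit. CPM used TMM-scaled library totals and RPKM divided CPM by the deposited length. Where a group had no read, the fold is a bound against 3 reads over the group. This bound takes the reads of the other group as exact. With 1 to 3 reads the fold is the ratio of summed reads with its 95% exact binomial interval. Tables of sequence came from RefSeq (GRCm38.p6) through pandas 2.3.3.

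The collagen genes, the lists and the tests were chosen with earlier results of these data known. Values are named for 10 genes (Col4a1, Col4a2, Col4a5, Col4a6, Col1a1, Col1a2, Col3a1, Col5a1, Col5a2 and Col18a1), for up to 6 called genes a direction with the smallest adjusted p, for genes with a group mean of at least 5 CPM, and for up to 3 genes with the largest interactions; other collagen genes are named to account for all members. Alternatives were RLE factors, DESeq2 1.42.0, 2 other filters, equal depth, a replicate block, only the groups compared, and each library left out. Replicates of all groups differed beyond sampling noise, so none was merged.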

Additional observations from a re-analysis of the deposited data

Results flagged for a closer look

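The difference between SL2i and SL was set against the same difference in chr8A by an interaction term in edgeR's quasi-likelihood fit, with Benjamini-Hochberg adjustment over all 17178 genes tested, and the collagen genes below an adjusted p of 0.05 are listed here as log2 values ± SE. In clone 1 the interaction was 0.82 ± 0.13 for Col4a1, 0.77 ± 0.18 for Col4a2, -0.50 ± 0.13 for Col5a1, -1.37 ± 0.29 for Col7a1, -1.40 ± 0.24 for Col9a2, 1.19 ± 0.42 for Col13a1, 0.31 ± 0.045 for Col18a1 and -0.98 ± 0.30 for Col27a1. In clone 2 it was 0.99 ± 0.13 for Col4a1, 1.15 ± 0.18 for Col4a2, -0.86 ± 0.28 for Col7a1, -1.95 ± 0.26 for Col9a2, 0.25 ± 0.045 for Col18a1 and -1.26 ± 0.31 for Col27a1. A positive value means that the gene fell less, or rose more, in SL2i in the clone than in chr8A. Col4a1, Col9a2 and Col18a1 in both clones, Col4a2 in clone 2, and Col5a1 and Col7a1 in clone 1 passed under every alternative tried. Each clone is 1 line, and both were compared with the same 5 chr8A libraries.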

How the results depend on the processing

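The counts of collagen genes called were recomputed under 7 other processing choices and with each library of the groups compared left out in turn; 121 of 131 recomputed counts stayed within 1.5 times the main count, and no named log2 fold change of a called gene reversed. In LbNOX against vector cells 1 gene was called with no filter and 2 without vector replicate 2 and LbNOX replicate 3, an alternative chosen after seeing the data, in place of 0; with no filter 27701 genes were tested in place of 16119. In SL clone 1 2 genes were called with DESeq2 and 3 at equal depth, in place of 5, and in SL clone 2 5 at equal depth in place of 8. The cause was not tested; thinning to equal depth leaves fewer reads and 34 collagen genes tested in place of 37. With single libraries left out, the count was 0 for LbNOX, 30 to 33, 30 to 33 and 29 to 33 for the medium in clone 1, clone 2 and chr8A, 5 to 6 and 4 to 8 for clones 1 and 2 in SL2i, 4 and 4 to 8 for clones 1 and 2 in SL, and 5 to 10 and 4 to 7 for the interactions. The 2 SL2i libraries per group are the limit, since without 1 of them the lone library is taken to vary like the other groups. Replicate numbers do not pair the libraries, as same-numbered LbNOX and vector libraries had correlations of 0.392, -0.506 and -0.318 across genes; with the replicate block the counts were 0 for LbNOX, 33, 32 and 33 for the medium, 6 and 10 in SL2i, 5 and 9 in SL, and 9 and 6 for the interactions. In SL2i 1 read is 0.096 to 0.106 CPM, which limits statements on genes near 0.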
